A study of Homo sapiens with 12 samples.

Results

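The comparison set both groups on the combination diet against the control diet in WM1366, a long-established line of human skin melanoma cells whose NRAS gene is known to be mutated to an active form. Of the 12931 genes in the files, 1691 were separated in every library: 837 lay above all 4 controls in all 8 combination libraries, and 854 lay below all 4 controls in all 8. These genes were chosen by position alone. The 8 combination libraries are 4 named R1 and 4 named R2, and the mean used for the comparison gives R1 and R2 equal weight.

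The control group (n = 4) had a control diet, and R1 (n = 4) and R2 (n = 4) had a diet with a MEK inhibitor and a CDK4/6 inhibitor. The series describes RNA from xenograft tumours of WM1366 that were progressing, whereas the sample labels describe cells grown in Tu2% medium. The treatment text of every sample, control included, names palbociclib (PD0332991) at 0.1 uM and PD0325901 at 1 nM. What sets R1 and R2 apart is not in the labels, nor is it stated whether the libraries of a group are separate tumours, cultures or repeated preparations, so that p-values measure only the spread between these samples. All groups come from a single cell line. A xenograft grows in a mouse host, and reads from host cells were not separated here. In a bulk sample, fewer cells of a type and less RNA per cell cannot be told apart.

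Active RAS switches on RAF kinases, which activate MEK and then ERK, and ERK raises transcription of cyclin D1 and of its own feedback inhibitors, the DUSP and SPRY families. Cyclin D binds CDK4 and CDK6, which phosphorylate the RB protein and so release E2F factors that drive DNA replication genes. PD0325901 blocks MEK and palbociclib blocks CDK4 and CDK6, so the pair acts at successive steps of the route by which NRAS-mutant melanoma cells enter the cell cycle.

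Values are normalised read counts, on a scale close to CPM. Differences are log2 fold changes on the log2(value + 0.5) scale from limma, which understate the change of genes with low values. Calls, and the words rose and fell, stand for a Benjamini-Hochberg adjusted p under 0.05 over all 12931 genes. Recovered reads ranged from 20003891 to 39009384 per library. R1 replicate 2 stood apart from the other R1 libraries in 12 of 129 named genes, by Dixon's critical value. Without it 961 genes lay above all controls and 982 below. Leaving out any library can only keep or raise these counts. With each library left out in turn, 876 to 1004 genes lay above and 883 to 982 below. In R1 the mitochondrial genome gave 2.54% ± 0.517 (SD, n = 4) of all reads, while R2 was at 7.83% ± 2.59 and control at 8.67% ± 2.2. Of 14 melanoma markers, MITF, PMEL, AXL, NES, VIM, CSPG4 and MCAM were listed in the files, and SOX10, MLANA, TYR, DCT, S100B, S100A1 and NGFR were not listed. MITF, the master regulator of the melanocyte lineage, stood at 50.3 ± 9.08 (SD, n = 4) in control.

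By the test on the mean, 2291 genes rose (17.7% of all genes) and 2262 fell (17.5%). Full separation was less frequent, with 6.47% of all genes above the controls in all 8 libraries and 6.6% below. The separated genes of each list below are to be read beside these shares. The 837 higher genes made up 31.2% of the genes whose 4 R1 libraries all lay above the controls and 36% of those whose 4 R2 libraries did. The 854 lower genes made up 34.8% and 39.2% of the corresponding lower sets. R1 and R2 share the same 4 controls. Of the separated genes, 828 higher and 844 lower were called, which the selection itself favours. Their median change was 0.68 for the higher genes and -0.80 for the lower genes, beside 0.01 over all genes. Most changes were modest: 475 of the higher and 400 of the lower genes changed less than 1.5-fold in the group that moved less, and 149 and 191 changed more than 2-fold in both groups. A further 2881 genes were called on the mean although their libraries overlapped the controls.

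**Figure D1:**
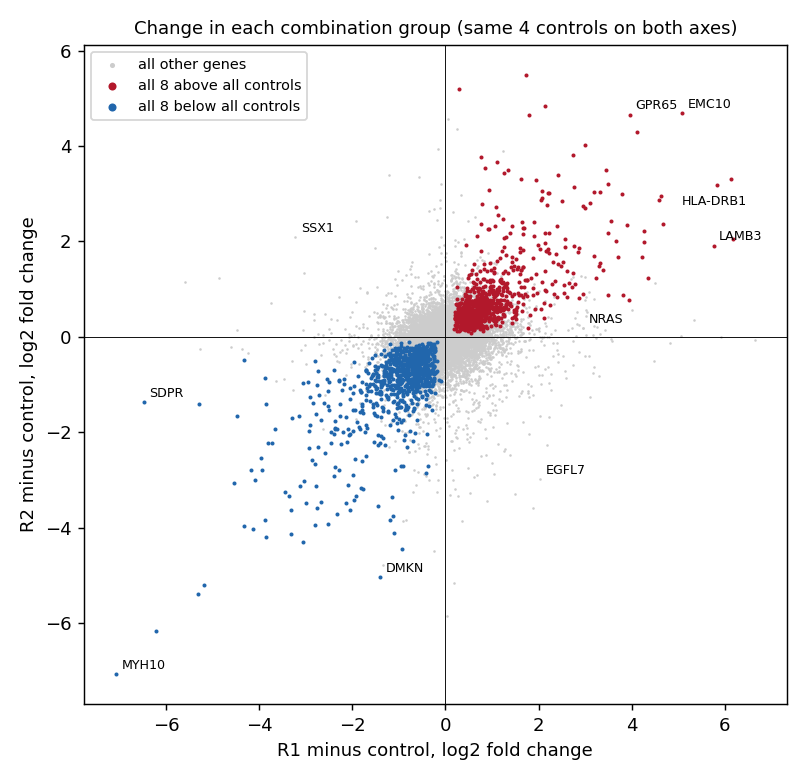
Log2 fold change of R1 minus control (x axis) and of R2 minus control (y axis) for each of 12931 genes, from limma, with the genes separated in all 8 combination libraries in red (837 above all controls) and blue (854 below). The same 4 controls enter both axes, so the axes are not independent. LAMB3 lies far to the right of its height and SDPR far to the left, while NRAS lies near 0 on the y axis.

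The genes that rose most in both groups were varied in function. EMC10, a subunit of the endoplasmic reticulum complex that inserts membrane proteins (chr19:50476400-50490870), stood at 78.6, 53, 77.4 and 67.6 in R1 replicates 1 to 4 and at 49.4, 78.2, 43.5 and 44.2 in R2. In the controls it stood at 1.88, 1.25, 1.62 and 1.47. Its lowest combination library was thus far above its highest control, and its mean was 39.6-fold higher (log2 fold change 4.88, SE 0.16, limma adjusted p = 6.6e-11). CSMD2, a large transmembrane protein with CUB and sushi domains (chr1:33513999-34165842), had no read in any control. It stood at 5.68, 10.6, 8.16 and 8.84 in R1 and at 8.75, 5.59, 13.2 and 11.6 in R2, and with 3 reads over the control group as a bound it was at least 264-fold higher. R1 and R2 overlapped in both of these genes.

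GPR65, a proton-sensing receptor (chr14:88005124-88014811), stood at 15.9, 10.5, 7.78 and 9.08 in R1, at 16.1, 13.8, 19 and 21.5 in R2, and at 0.281, 0.234, 0.156 and 0.158 in control. The combination mean was 68.6-fold higher, and 3 of the 4 R2 libraries lay above every R1 library. PLEKHA6, a protein with a pleckstrin homology domain, was 14-fold higher (log2 fold change 3.35, limma adjusted p = 6.9e-09). EN2, a homeobox factor of the engrailed family, was 8.35-fold higher, at 18.4 to 33.6 over the 8 combination libraries against 2.12, 2.76, 2.81 and 3.57 in control.

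HSD11B1, the enzyme that converts inactive cortisone to cortisol, stood at 48.5, 72.7, 25.6 and 22.3 in R1, at 4.51, 3.35, 6.27 and 6.01 in R2, and at 0, 0.0389, 0.0521 and 0.105 in control, where all libraries together held 4 reads. SERPINA1, the protease inhibitor alpha-1 antitrypsin, stood at 25.7, 79.1, 22.2 and 16.1 in R1, at 4.51, 12.7, 9.49 and 9.68 in R2, and at 0.281, 0.779, 0.99 and 1.1 in control. Both were separated from the controls in every library, and in both every R1 library lay above every R2 library. SIGLEC15, a sialic acid-binding receptor, stood at 42.7 in R1 replicate 2 but at 8.54, 4.06 and 3.37 in the other R1 libraries, while R2 spanned 16.8 to 20.9 and control 0.561 to 1.31. FABP6, a bile acid-binding protein, and TENM2, a teneurin adhesion protein, were 26.4-fold and 9.69-fold higher in the mean. In 6 genes all controls lay under 1 while both group means reached 5: CSMD2, FABP6, GPR65, HSD11B1 and the uncharacterised PP7080 and AC003092.1, the last 2 chosen after their values were seen.

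**Figure D2:**
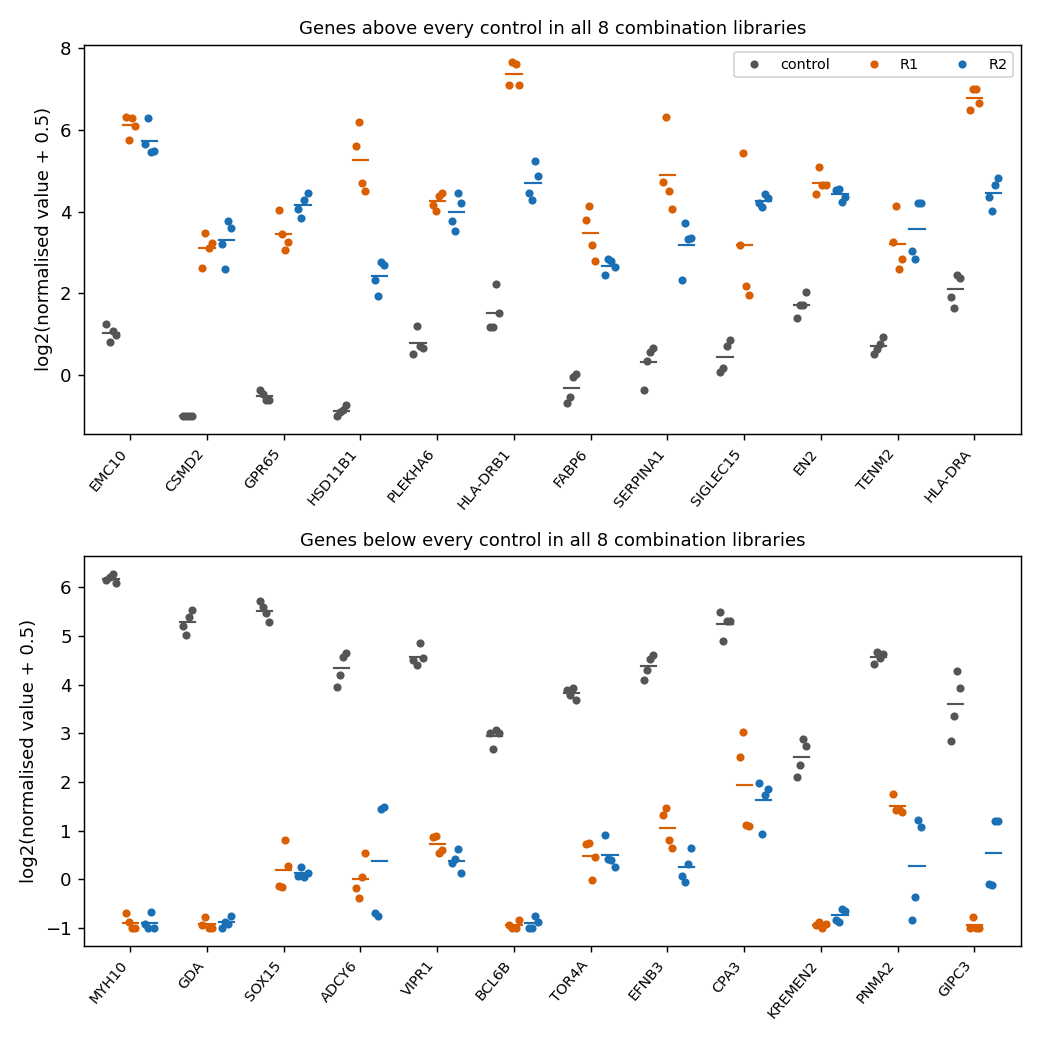
Log2(normalised value + 0.5) of the 12 genes with the largest rise (upper panel) and the 12 with the largest fall (lower panel), ranked by the group that moved less. Each point is a library, bars are means of 4 libraries, and control, R1 and R2 are grey, orange and blue. EMC10 rises from between 1.25 and 1.88 to between 43.5 and 78.6 before the log scale, and MYH10, GDA and BCL6B fall to the floor of the scale.

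The largest fall was in MYH10, which codes for a heavy chain of the non-muscle myosins that drive contraction (chr17:8474205-8630761). It stood at 70, 73.8, 76.6 and 67.3 in the controls, and at 0.121, 0.0439, 0 and 0 in R1 and 0.0291, 0, 0.125 and 0 in R2. The 8 combination libraries held 11 reads against 6396 in the 4 controls, so that every combination library was near 0 (log2 fold change -7.07, SE 0.12, limma adjusted p = 3.9e-14). GDA, guanine deaminase of purine breakdown (chr9:72114595-72257193), stood at 36.5, 31.9, 41.5 and 45.9 in control and at or below 0.0918 in every combination library, with 7 reads in all 8 (log2 fold change -6.19, limma adjusted p = 3.5e-13). FAM83H, a keratin-associated scaffold protein that the naming rule leaves out and that was chosen after its values were seen, held 1626 reads in control and 3 in the combination libraries, a ratio of reads between control and combination of 1418 (95% counting interval 484 to 6881).

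SOX15, a transcription factor of the SOX family (chr17:7588178-7590170), stood at 51.7, 47.5, 44.1 and 38.6 in control and between 0.395 and 1.25 in the 8 combination libraries, a 70.7-fold fall. VIPR1, a receptor for vasoactive intestinal peptide, stood at 22.2, 20.6, 28.2 and 22.9 in control and between 0.597 and 1.36 in the combination libraries. BCL6B, a zinc finger repressor (chr17:7023020-7030290), fell from 5.92 to 7.87 in the controls to at most 0.0936. The R2 minus R1 difference was -0.07 (SE 0.20) for SOX15, -0.35 (SE 0.16) for VIPR1 and 0.03 (SE 0.15) for BCL6B, and did not pass the test (limma adjusted p = 0.795, 0.0827 and 0.874).

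ADCY6, an adenylate cyclase, stood at 14.9, 17.9, 23.1 and 24.5 in control. It stood at 0.388, 0.263, 0.532 and 0.958 in R1 and at 0.116, 0.0931, 2.22 and 2.29 in R2. The R2 group split, with replicates 1 and 2 below every R1 library and replicates 3 and 4 above every R1 library. EFNB3, an ephrin ligand (chr17:7705202-7711378), fell 17.5-fold in the mean, CPA3, a carboxypeptidase, 11.2-fold, and TOR4A, a torsin family ATPase, 14.8-fold. KREMEN2, a receptor for the WNT inhibitor DKK1, held 460 reads in control and 14 in the combination libraries. In 6 genes all 8 combination libraries lay under 1 while the control mean reached 5, namely MYH10, GDA, BCL6B, KREMEN2, FAM83H and ASAP3, the last an ARF GTPase-activating protein that, like FAM83H, was chosen after its values were seen.

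The rule has a sharp edge. Just inside it lay PUS3, a pseudouridine synthase, whose highest control and lowest combination library both round to 23.6, and SMARCA2, a chromatin remodelling ATPase, with 26.7 and 26.8. Just outside lay CDC42BPB and SDSL, whose R2 replicate 1 (140 for CDC42BPB) and R2 replicate 2 (4.38 for SDSL) fell at the level of control replicate 3. Among falls, DONSON and WDFY1 lay just inside and TWSG1 just outside. The library nearest to the controls was R2 replicate 2 in 22.5% of the higher genes and R2 replicate 4 in 18.4% of the lower genes. On the control side the nearest library was spread over all 4, at 21.5% to 28.1% for the higher genes.

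In part of the separated genes the size of the change differed between the groups. The R2 minus R1 difference, a contrast of the R1 and R2 means in the fit of all 12 libraries, was called for 46.8% of all genes. It was called for 320 of the 837 higher genes (38.2%), of which 240 had risen further in R1. Of the 854 lower genes it was called for 353 (41.3%), of which 198 had fallen further in R1. The rule leaves out the 473 genes moved in opposite directions, all of them called for this difference, and so itself favours lower shares. LAMB3, a chain of the laminins of epithelial basement membranes, stood at 135, 480, 135 and 126 in R1, at 11.7, 9.54, 16.5 and 12.1 in R2, and at 1.68, 2.8, 4.53 and 3.1 in control (R2 minus R1 -3.84, limma adjusted p = 2.2e-06). SDPR, the caveolar coat protein cavin-2, went the other way: it stood at 52.7, 52.8, 49.2 and 48.5 in control, at 29.7, 20.9, 15 and 15 in R2, and at 0.0728, 0.0878, 0.114 and 0.0309 in R1. SDPR was thus lower in R2 and near 0 in R1 (R2 minus R1 5.11, limma adjusted p = 7.7e-11).

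TFAP2C, an AP-2 transcription factor, and MOCS1, an enzyme of molybdenum cofactor synthesis, showed the same order as SDPR, with R2 minus R1 differences of 3.88 and 3.85 (limma adjusted p = 2.4e-07 and 5.5e-08). DMKN, a secreted epidermal protein, was lower in R2, at 0.204, 0.279, 0.156 and 0.138 against 3.62, 7.77, 15.1 and 10.1 in R1 and 23.7, 26.1, 20 and 20.2 in control. In all of these genes the 3 groups did not overlap.

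MHC class II molecules present peptides to helper T cells. Their genes are switched on by the coactivator CIITA, which acts through a conserved promoter module that ends in an inverted CCAAT box bound by the factor NF-Y. Melanomas are known to express these genes at times, although the resting melanocyte does not. Promoters of 3 class II genes that separated are shown because these genes moved together. Capitals mark the pentamer ATTGG, the inverted CCAAT letters, and its reverse complement CCAAT, the same letters in the forward direction. Each is the 200 bases before the annotated start, 5′ to 3′ in the direction of the gene, from RefSeq on GRCh38.p14: HLA-DRB1 on the minus strand at chr6:32589849-32590048, HLA-DPB1 on the plus strand at chr6:33075790-33075989 and HLA-DQB1 on the minus strand at chr6:32666658-32666857.
HLA-DRB1: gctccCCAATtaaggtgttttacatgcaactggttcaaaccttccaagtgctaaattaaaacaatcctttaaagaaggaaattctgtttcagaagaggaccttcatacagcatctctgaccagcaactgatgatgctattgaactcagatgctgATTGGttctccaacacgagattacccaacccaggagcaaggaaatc
HLA-DPB1: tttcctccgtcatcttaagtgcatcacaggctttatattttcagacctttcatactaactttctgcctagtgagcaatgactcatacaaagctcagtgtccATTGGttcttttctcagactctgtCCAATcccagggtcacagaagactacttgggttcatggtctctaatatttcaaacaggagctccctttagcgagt
HLA-DQB1: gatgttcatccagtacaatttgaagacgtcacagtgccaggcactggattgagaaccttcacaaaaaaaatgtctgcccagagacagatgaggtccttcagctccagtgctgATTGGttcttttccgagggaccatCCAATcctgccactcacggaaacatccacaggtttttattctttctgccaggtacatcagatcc
Both strands were searched over 300 bases per promoter, from 250 before to 50 after the start. Of the 8 list genes with a single promoter entry, 7 held ATTGG or CCAAT, beside 34.6% of all 35116 promoter entries. Among the 7, HLA-DMB and CD74 held only the forward CCAAT. The longer CTGATTGG, which contains ATTGG, was in 4 of the 8 and in 3.97% of all entries. The class II genes are related by descent, so these promoters are not independent, and a match of letters is not a bound site.

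Of 14 measured genes of the class II list, 8 rose, beside 17.7% of all genes. In all 8 libraries 6 were separated upward, beside 6.47% of all genes: HLA-DRA, HLA-DRB1, HLA-DRB5, HLA-DPA1, HLA-DPB1 and HLA-DQB1. The median change of the list was 1.26, with 1.92 in R1 and 0.60 in R2. HLA-DRA, the invariant alpha chain of HLA-DR (chr6:32439842-32445046), stood at 88.4, 127, 127 and 101 in R1, at 20.1, 15.7, 24.6 and 27.8 in R2, and at 3.29, 2.65, 4.95 and 4.73 in control. HLA-DRB1, its beta chain (chr6:32578769-32589848), stood at 135, 200, 195 and 137 in R1, at 21.3, 18.9, 36.9 and 28.6 in R2, and at 1.76, 1.75, 4.17 and 2.36 in control. The 3 groups did not overlap in either gene, with R1 highest and control lowest.

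HLA-DPB1 stood at 27.3, 46.9, 43.6 and 32.7 in R1, at 6.02, 4.65, 10.4 and 8.95 in R2, and at 0.681, 1.4, 2.29 and 1.73 in control. HLA-DPA1, its partner chain, was 6.77-fold higher in the mean. HLA-DRB5 and HLA-DQB1 each held 3 reads in the 4 controls together against 1298 and 494 in the combination libraries, ratios of 165 (95% counting interval 56.5 to 803) and 63 (21.4 to 306). HLA-DRB1 and HLA-DRB5 are near-identical, so reads may be split between them.

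The R2 minus R1 difference passed the test in each of the 6, from -2.66 in HLA-DRB1 to -1.78 in HLA-DPA1 (limma adjusted p = 1.8e-06 and 3.9e-05). HLA-DMA, which helps to load peptides, rose in the mean (0.95, limma adjusted p = 0.00042) with R2 libraries at 7.7, 8.15, 8.64 and 9.87 that overlapped the controls at 4.85 to 8.91. With a single mean for all 8 combination libraries the HLA-DMA call was lost (limma adjusted p = 0.0574). CD74, the invariant chain, was not called for the mean (0.42, limma adjusted p = 0.0617), as it stood at 1508 to 2611 in R1, at 592 to 659 in R2 and at 623 to 1092 in control (R2 minus R1 -1.57, limma adjusted p = 2.1e-05). CIITA itself stood at 15.5, 14.7, 10.4 and 9.61 in R1, at 7.79, 4.7, 6.96 and 6.01 in R2 and at 7.09, 10, 9.9 and 9.24 in control, a difference of -0.03 for the mean that was not called (limma adjusted p = 0.911). HLA-DMA, CD74 and CIITA were chosen after their values were seen.

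**Figure D3:**
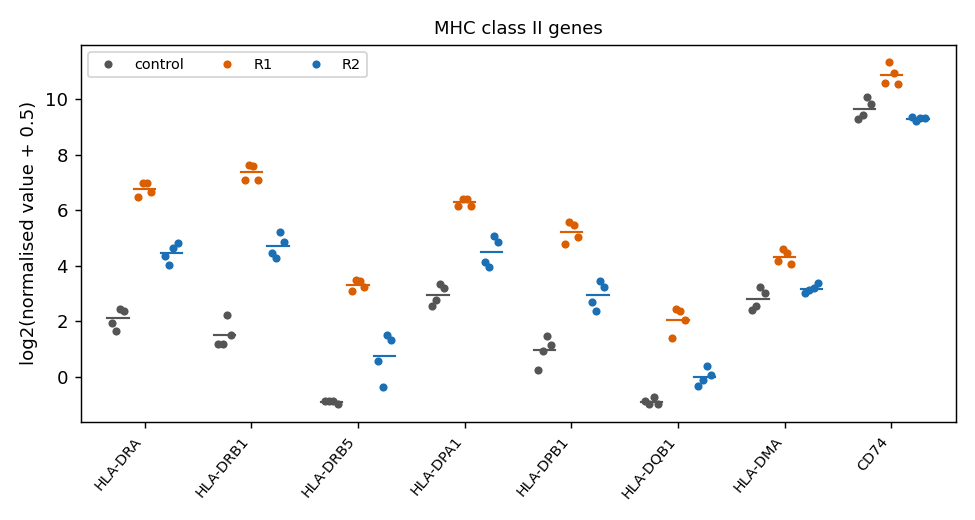
Log2(normalised value + 0.5) of 8 MHC class II genes in each library (points) with group means over 4 libraries (bars). The 6 genes from HLA-DRA to HLA-DQB1 are separated in the order control, R2, R1, while HLA-DMA and CD74 overlap between R2 and control.

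Class II genes, GPR65 and the leukocyte integrin chain ITGB2 are also expressed by leukocytes. Of 21 leukocyte and macrophage markers only CSF1R was listed in the files, at 1.39 to 6.19 in R1, 0.349 to 0.688 in R2 and 1.12 to 3.18 in control. For CSF1R, R1 overlapped control and R2 lay below control. The other markers of that list, PTPRC and CD68 among them, were not listed. Of the other cell types, 8 of 14 fibroblast and pericyte markers, 6 of 17 endothelial, 2 of 13 red blood cell and 2 of 18 keratinocyte markers were listed, and none was separated in all 8 libraries. Summed endothelial markers stood at 492 to 654 in R1, 168 to 245 in R2 and 215 to 260 in control. The summed keratinocyte markers KRT10 and SFN stood at 25.5 to 39.9, 14 to 21.8 and 16.8 to 19.3. The summed globins HBG2 and HBE1 stood at 0.0309 to 0.19, 48.2 to 80.6 and 21.8 to 38.7. The summed fibroblast and pericyte markers, which include the melanoma markers MCAM and CSPG4, stood at 1222 to 1397, 1601 to 1745 and 1441 to 1620. Their part in the results was not tested.

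In MHC class I presentation, 5 of 20 measured genes rose and 4 fell, beside 17.7% and 17.5% of all genes. Only 1 or 2 fell when control replicate 3 or 4, R2 replicate 1, 3 or 4, or R1 replicate 1, 3 or 4 was left out. The 3 separated genes all lay upward, beside 6.47% of all genes: TAP1 and TAP2, the chains of the peptide transporter, and PSMB9, an immunoproteasome subunit. TAP2 stood at 63.1, 40.3, 58.4 and 65.4 in R1, at 40.1, 34.7, 59.2 and 68.5 in R2, and at 30.9, 26.1, 22.9 and 21.8 in control. R1 and R2 overlapped in TAP2 and both lay above control (log2 fold change 1.04, limma adjusted p = 0.000567). In the type I interferon list 7 of 39 genes rose and 9 fell, beside 17.7% and 17.5% of all genes, and 5 fell without R2 replicate 1 or without control replicate 1, 2 or 4. IRF7, a factor that amplifies interferon production, stood at 3.4, 4.48, 3.76 and 3.03 in R1, at 7.94, 17.6, 12 and 9.09 in R2, and at 33.4, 34.2, 40.5 and 36.7 in control, and the antiviral GTPase MX1 fell 2.7-fold. USP18, which removes the ISG15 tag, was separated upward at 2.02 to 3.62 against 1.47 to 1.75. The list's median change was -0.02.

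Extracellular matrix genes changed in both directions. Of 37 measured, 13 rose and 8 fell (4 without control replicate 3 or 4), beside 17.7% and 17.5% of all genes. The median change was 0.29 beside 0.01 over all genes. The 6 separated rises, beside 6.47% of all genes, were the laminin chains LAMA1, LAMA2, LAMA4 and LAMB3, the collagen COL6A3 and the microfibril protein FBN2. LAMA4 stood at 64.2, 130, 62.7 and 62.8 in R1, at 2.15, 3.91, 5.62 and 4.5 in R2, and at 0.441, 0.35, 0.729 and 0.735 in control. LAMA2 had the other order, at 2.16, 4.74, 2.13 and 1.88 in R1, 5.96, 5.54, 9.27 and 8.86 in R2 and 1, 1.13, 1.04 and 1.26 in control. COL6A3 had no read in any control and spanned 0.14 to 12.9 in the combination libraries, at least 118-fold higher with 3 reads over the control group as a bound. LAMA1, LAMA2, COL6A3 and FBN2 were chosen after their values were seen.

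The 3 separated falls, beside 6.6% of all genes, were TIMP3, COL8A1 and SPOCK1. TIMP3, an inhibitor of matrix metalloproteinases, held 140 reads over the controls, at 1.64, 1.44, 1.56 and 1.68, no read in R1 and 1 read in R2, a ratio of reads of 366 between control and combination (95% counting interval 64.7 to 14564). SPOCK1, a proteoglycan, stood at 10.8, 17.7, 2.73 and 3.52 in R1, at 9.39, 25.5, 13.2 and 13.9 in R2, and at 30.1, 43.2, 45.4 and 45.5 in control. COL8A1, a short-chain collagen chosen after its values were seen, was 3.65-fold lower. Among 14 integrin chains, which bind such matrix, 2 rose and 4 fell, beside 17.7% and 17.5% of all genes. ITGA6 and ITGB2 were separated upward and ITGB5 and ITGB8 downward, beside 6.47% and 6.6% of all genes. ITGA6, whose protein pairs with beta chains as a laminin receptor, stood at 239, 168, 194 and 241 in R1, at 176, 167, 130 and 150 in R2, and at 73.5, 77, 81.7 and 91.9 in control (log2 fold change 1.15, limma adjusted p = 4.6e-06). ITGB8, a chain of a receptor that activates latent TGF-beta, stood at 0.607 to 1.58 in R1, 2.33 to 5.6 in R2 and 6.72 to 10.5 in control.

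Melanoma cells range from a melanocytic state, with MITF and pigment genes, to an undifferentiated state with high AXL. Both lists held more falls than rises, where 17.7% of all genes rose and 17.5% fell. Of 16 measured melanocyte genes 3 rose and 7 fell, with MITF, RAB27A and MC1R separated downward and PMEL and BCL2A1 upward. MITF stood at 26.9, 29.1, 15.3 and 22.7 in R1, at 31, 27.6, 29.7 and 33.5 in R2, and at 60, 56.2, 43.1 and 42.1 in control (log2 fold change -0.90, SE 0.16, limma adjusted p = 0.000494). PMEL, the fibre protein of melanosomes, which MITF is known to activate, moved the other way, at 22.4, 35.7, 27.2 and 23 in R1, 7.24, 12.5, 8.74 and 6.75 in R2 and 4.05, 4.83, 6.72 and 5.67 in control. BCL2A1, a survival protein of the BCL2 family and likewise a known MITF target, was 5.81-fold higher. MC1R, the melanocortin receptor, stood at 1.24 to 2.33 in the combination libraries and at 2.4 to 4.25 in control.

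Of 30 measured genes of the undifferentiated state 5 rose and 9 fell. WNT5A, CDH2, F3, TPM1 and CRIM1 were separated downward and TPM2 upward. F3, tissue factor, stood at 4.1, 4.91, 4.78 and 5.5 in R1, at 3.34, 2.42, 4.74 and 4.36 in R2, and at 32.2, 22.9, 26.4 and 26.8 in control, a 6.34-fold fall without overlap. The tropomyosins went apart: TPM1 fell 2.13-fold in the mean and TPM2 was 1.59-fold higher. AXL, the receptor kinase that marks this state, was called lower (-0.55, limma adjusted p = 0.00173) but overlapped, with R1 at 686 to 1024, R2 at 1311 to 1525 and control at 1476 to 1648. In a fit with a single mean for all 8 combination libraries the AXL call was lost (limma adjusted p = 0.12). WNT5A, CDH2, CRIM1 and RAB27A were chosen after their values were seen.

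The genes for the drug targets did not separate. CDK4 stood at 450, 341, 529 and 438 in R1, at 215, 187, 215 and 179 in R2, and at 319, 289, 276 and 259 in control. MAP2K1, which codes for MEK1, stood at 91.8, 122, 91.2 and 94.6 in R1, at 35.8, 35.9, 37.7 and 35.3 in R2, and at 60.1, 67.1, 75.4 and 74.8 in control. Both lay above every control in R1 and below every control in R2, so that the mean gave 0.04 for CDK4 and -0.20 for MAP2K1 (limma adjusted p = 0.795 and 0.116). The R2 minus R1 differences were -1.13 and -1.44 (limma adjusted p = 1.1e-05 and 2.8e-07).

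MAP2K2, which codes for MEK2, overlapped throughout, at 194 to 283 over the 12 libraries. CDK6 was called higher (0.41, limma adjusted p = 0.0433), a call that was lost in 11 of the alternatives, with R1 at 40.9 to 70.6, R2 at 83.2 to 118 and control at 46.3 to 65.8. DUSP6, the phosphatase that ERK induces, followed CDK4 and MAP2K1, with R1 at 110 to 137, R2 at 44.9 to 54.9 and control at 55.8 to 103.

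Of the genes for RAS-RAF-MEK-ERK components, 6 of 24 rose and 2 fell, beside 17.7% and 17.5% of all genes. NRAS stood at 951, 849, 1005 and 1109 in R1, at 129, 129, 139 and 181 in R2, and at 135, 134, 108 and 127 in control. The mean for NRAS was called higher (1.57, limma adjusted p = 1.4e-07), although R2 overlapped control and the R2 change was 0.19 against 2.95 in R1. With a single mean for all 8 combination libraries the NRAS call was lost (limma adjusted p = 0.124).

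ERK output genes gave 4 rises and 6 falls among 27 measured, beside 17.7% and 17.5% of all genes. The list's median was -0.16, with 0.02 in R1 and -0.53 in R2. EPHA4, an ephrin receptor, was separated upward, at 5.15 to 7.59 against 1.6 to 2.31. SPRY1, a feedback inhibitor of receptor signalling to RAS, was separated downward, at 4.83, 6.67, 4.33 and 4.76 in R1, 2.01, 3.4, 2.25 and 2.34 in R2 and 8.82, 7.13, 15.2 and 14.5 in control. ETV1, LIF and TFAP2C were the other separated falls. SPRY4 rose in the mean (0.53, limma adjusted p = 0.014) with R1 at 130 to 160 and R2, at 31 to 62, overlapping control at 48.9 to 61.6. The SPRY4 call was lost with a single mean for all 8 combination libraries (limma adjusted p = 0.394) and without control replicate 2 (limma adjusted p = 0.0542).

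**Figure D4:**
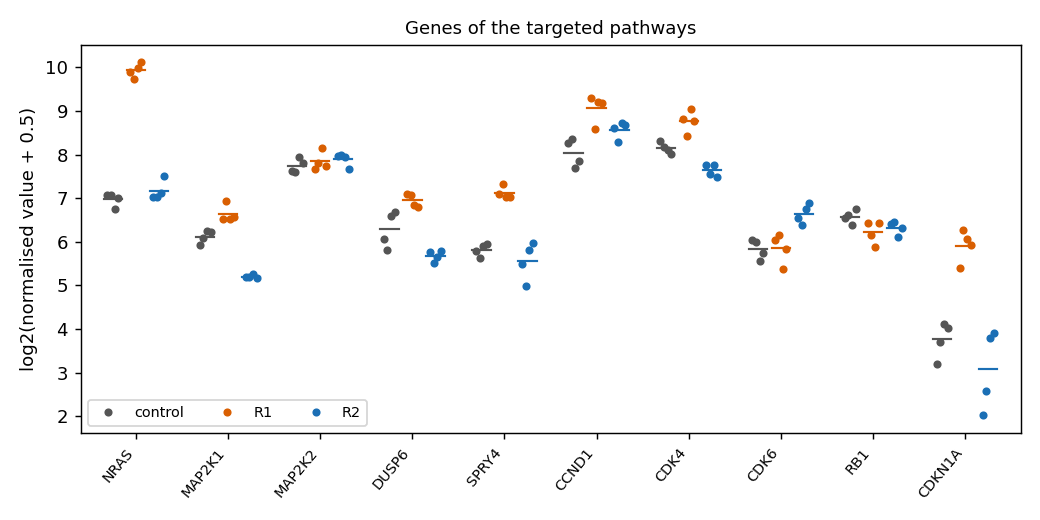
Log2(normalised value + 0.5) of 10 genes of the RAS-ERK and cyclin D-RB pathways in each library (points) with group means over 4 libraries (bars). CDK4 and MAP2K1 lie above control in R1 and below in R2, and NRAS lies above control in R1 and overlaps it in R2.

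In the cyclin D-CDK4/6-RB list 7 of 23 genes rose and 5 fell, beside 17.7% and 17.5% of all genes. The separated genes were CDKN2D and TFDP2, higher, and E2F4, lower, beside 6.47% and 6.6% of all genes. CDKN2D, the CDK4/6 inhibitor p19-INK4D, stood at 17.3, 20.2, 31.9 and 26.8 in R1, at 13.6, 16.2, 12.9 and 12.1 in R2, and at 7.61, 7.36, 10.6 and 10.6 in control (log2 fold change 0.96, limma adjusted p = 0.000465). CCND1, cyclin D1, rose in the mean (0.77, limma adjusted p = 0.00156) and nearly separated, with R2 replicate 2 at 312 below the control values of 326 and above 309. CDKN1A, the CDK inhibitor p21, stood at 41.6 to 76.3 in R1, 3.55 to 14.5 in R2 and 8.74 to 16.7 in control, and the mean was not called (0.73, limma adjusted p = 0.0828). Without R2 replicate 1 the CDKN1A mean was called higher (0.91, limma adjusted p = 0.016). RB1 stood at 58.4 to 86.7 in the combination libraries and 83.6 to 108 in control (-0.31, limma adjusted p = 0.0502). RB1 lay just past the threshold and was called lower in 8 alternatives, DESeq2 on recovered reads among them (-0.32, adjusted p = 0.0286).

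Of 44 replication genes 5 fell, and of 39 mitosis genes 8 fell and 1 rose (HMMR), with medians of -0.09 and 0.03. Over all genes, 17.5% fell and 17.7% rose. Without R1 replicate 2, 11 mitosis genes rose and 9 fell. Over all genes 6.6% were separated downward and 6.47% upward. In these lists the separated genes were all lower, 2 of replication (RPA1 and TYMS) and 5 of mitosis (PLK4, AURKB, FOXM1, PRC1 and NUSAP1). Of these, RPA1, AURKB, FOXM1, PRC1 and NUSAP1 lie in chromosome regions, given below, where lower genes were frequent. RPA1, which coats single-stranded DNA, stood at 68.9 to 91.2 in the combination libraries and at 151 to 171 in control (log2 fold change -0.97, limma adjusted p = 6.0e-07). FOXM1, a transcription factor of mitotic genes (chr12:2857681-2877155), stood at 219, 109, 246 and 242 in R1, at 289, 223, 295 and 299 in R2, and at 579, 532, 441 and 418 in control. AURKB, the kinase of the chromosomal passenger complex (chr17:8204733-8210600), stood at 48.8, 21.3, 71.1 and 56.9 in R1, at 63.1, 48.7, 71.5 and 62.2 in R2, and at 132, 116, 113 and 96.4 in control. R1 replicate 2 was the lowest library for both. TYMS was separated but not called (-0.49, limma adjusted p = 0.0569), and without R1 replicate 2 it was called (-0.34, limma adjusted p = 0.00474). MKI67, the proliferation marker, was at 212 to 362 in R1, 491 to 669 in R2 and 279 to 466 in control, and its mean was not called (0.24, limma adjusted p = 0.264). PLK4, PRC1 and NUSAP1 were chosen after their values were seen.

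Of 28 measured receptor tyrosine kinases and ligands 13 fell and 1 rose (FGFR1), beside 17.5% lower and 17.7% higher among all genes. The list's median change was -0.54, and 5 of its genes fell with a single mean for all 8 combination libraries. MERTK, the receptor related to AXL, stood at 2.16, 1.99, 2.4 and 2.21 in control and at 0.0439 to 0.312 in the combination libraries, with 193 and 31 reads. FGF5, a fibroblast growth factor, stood at 10.8, 15.8, 15.5 and 19.1 in R1, at 16.7, 11.7, 16.9 and 19.4 in R2, and at 56, 45.8, 37.5 and 43.6 in control, and EREG, an EGF receptor ligand chosen after its values were seen, was 2.35-fold lower. Of 32 genes of the PI3K-AKT-mTOR-S6 list 5 rose and 5 fell, again beside 17.7% and 17.5% of all genes. AKT2, a kinase of that pathway, stood at 124 to 182 in the combination libraries and 213 to 258 in control, MLST8, an mTOR complex subunit, fell 1.45-fold, and PIK3R3, a PI3K regulatory subunit, and DEPTOR, an inhibitor of mTOR, were separated upward.

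Among genes of cell death, TNFRSF10B, the TRAIL receptor DR5, stood at 145 to 213 in R1, 87.1 to 109 in R2 and 66.2 to 77.7 in control. In the BCL2 family 5 of 19 rose and 4 fell, beside 17.7% and 17.5% of all genes, and 2 fell when control replicate 3, R2 replicate 3 or 4, or R1 replicate 1 or 4 was left out. BID was separated upward with BCL2A1, and BMF, a pro-apoptotic member, was separated downward at 1.16 to 4.38 against 8.6 to 15.7.

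Of 23 glycolysis genes 7 fell, beside 17.5% of all genes, with a median of -0.28, and GAPDH and PKM were separated. GAPDH stood at 7108, 11713, 14281 and 10769 in R1, at 8338, 11163, 8904 and 8574 in R2, and at 17186, 15674, 27070 and 22879 in control, 2.05-fold lower in the mean. Control replicates 3 and 4 were highest, as they were for ADM, a peptide hormone induced by low oxygen, at 186 and 144 against 62 and 41.7 in control replicates 1 and 2 and 3.01 to 16.4 in the combination libraries. Of 22 hypoxia genes 4 fell, beside the same 17.5% of all genes, with a median of -0.51. Without control replicate 3 or without control replicate 4, 4 glycolysis genes and 1 hypoxia gene fell, and without control replicate 1, 9 and 8 did. PKM, pyruvate kinase, stood at 2511 to 3756 in the combination libraries and 5061 to 6123 in control.

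Of 22 NRF2 targets, which serve redox defence, 6 rose and 3 fell, beside 17.7% and 17.5% of all genes. The 5 separated upward, beside 6.47% of all genes, were GCLC and GCLM (the subunits of the glutathione-forming ligase), TXNRD1, OSGIN1 and PRDX1. GCLM stood at 11.3, 9.04, 11.4 and 11.4 in R1, at 7.79, 14.2, 11.4 and 13.4 in R2, and at 6.49, 6.43, 5.68 and 6.62 in control, and OSGIN1 was 2.58-fold higher. ABCC2, a drug efflux transporter, was separated downward at 0.611 to 1.27 against 3.47 to 3.89. GCLC, TXNRD1 and PRDX1 were chosen after their values were seen. In the list of ATF4 and amino acid synthesis genes 4 of 31 rose and 11 fell, beside the same shares of all genes. Those that fell were ATF4, ATF3 and ATF5, transcription factors, CHAC1, STC2, the amino acid transporters SLC7A5 and SLC1A4, the tRNA synthetases AARS and GARS, and the enzymes SHMT2 and CBS, and those that rose were PHGDH of serine synthesis, PYCR1, SLC1A5 and PCK2. PYCR1, a proline synthesis enzyme, was separated at 106 to 143 against 60.7 to 80.7 in control, and CBS, of the transsulfuration route, separated at 4.08 to 8.47 against 12.5 to 14.8.

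In ribosomal protein genes the test on the mean and the separation gave different counts. Of 84, 55 rose in the mean and 1 fell, beside 17.7% and 17.5% of all genes. Yet 7 were separated upward in all 8 libraries, beside 6.47% of all genes. The median change of the list was 0.75 in R1 and 0.12 in R2. RPL23 stood at 1398, 1494, 2094 and 1561 in R1, at 1043, 992, 875 and 910 in R2, and at 647, 629, 790 and 692 in control. Of 13 mitochondrial genome transcripts 12 fell in the mean and none was separated, with medians of -1.81 in R1 and -0.16 in R2. In the nuclear-coded respiratory chain 31 of 78 rose and 1 fell, beside the same 17.7% and 17.5% of all genes. There 13 were separated upward and 1 downward, beside 6.47% and 6.6% of all genes. NDUFA4, a cytochrome oxidase subunit, was among the 13, at 128 to 186 against 86.2 to 102. The medians of that list were 0.43 in R1 and 0.04 in R2. With a single mean for all 8 combination libraries, 6 ribosomal protein genes and 9 of the respiratory chain rose. That limma fit called 0 mitochondrial transcripts lower (4 at an unadjusted p under 0.05). With separate R1 and R2 means, edgeR and DESeq2 each called 12 lower, as the main limma fit did.

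The lower genes were unevenly spread along the genome, by positions of GENCODE v29 on GRCh38 that were found for 11799 genes (91.2%). In the first 20 Mb of chromosome 17, 120 of 189 genes (63.5%) lay below all controls in all 8 libraries and 3 lay above. There 162 genes fell and 6 rose, with a median change of -0.78, made up of -0.76 in R1 and -0.87 in R2. Beyond 20 Mb on the same chromosome 3.21% of 498 genes were lower and the median was 0.06. MYH10, SOX15, BCL6B, EFNB3, RPA1 and AURKB all lie in the first 20 Mb.

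In the first 35 Mb of chromosome 12, where FOXM1 and GAPDH lie, 61 of 150 genes (40.7%) were lower and 1 was higher, with medians of -0.58 in R1 and -0.41 in R2. On chromosome 15, where PKM, TPM1, BMF, RAB27A, PRC1 and NUSAP1 lie, 109 of 370 genes (29.5%) were lower and 4 were higher. The medians there were -0.22 in R1 and -0.76 in R2. These 3 regions, chosen after their values were seen, held 36.4% of the lower genes with a position and 40.9% of their own genes were lower, against 4.57% of the 11090 genes elsewhere. Leaving out chromosome Y, which has few genes, the share of higher genes was largest on chromosome 6 (13.1% of 625) and on chromosome X (13% of 415), and it was 1.08% on chromosome 15. In windows of 5 Mb with at least 10 genes, the median share was 3.7% for lower and 5.56% for higher genes. Of 426 windows, 17 held over 30% lower genes and 7 held over 30% higher genes.

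**Figure D5:**
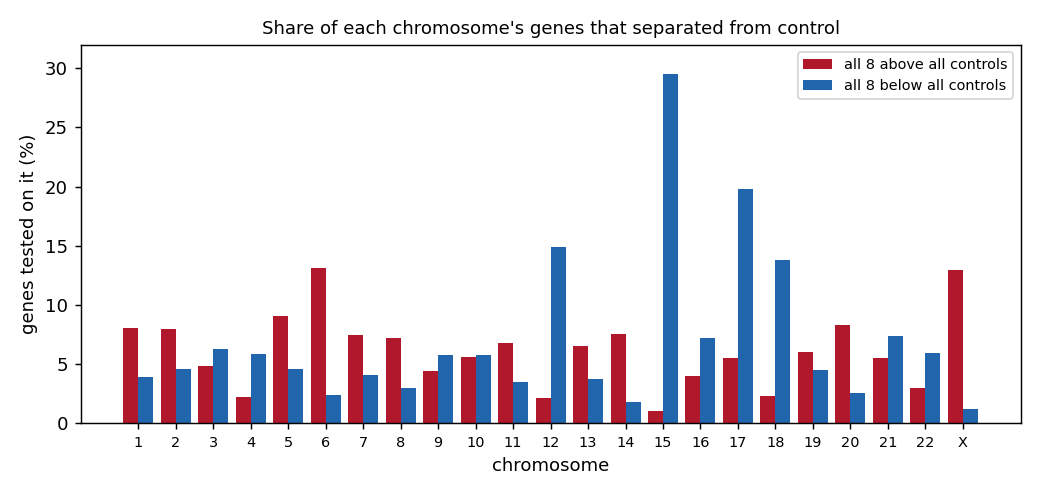
Percent of each chromosome's tested genes that lay above (red) or below (blue) all 4 controls in all 8 combination libraries. The blue bar reaches 29.5% on chromosome 15, 19.8% on chromosome 17, 14.9% on chromosome 12 and 13.8% on chromosome 18. Chromosome Y and the mitochondrial genome, with few genes, are left out.

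Genes that left the controls in opposite directions cancel in part or in full in the mean. In 276 genes all R1 libraries lay above and all R2 libraries below the controls, and in 197 the reverse held, and 402 of these 473 were not called for the mean. EGFL7, a secreted vascular factor, stood at 13.7, 14.5, 21 and 15.4 in R1, at 0.0291, 0, 0 and 0 in R2, and at 2.97, 2.84, 5.11 and 3.52 in control. NOS3, endothelial nitric oxide synthase, stood at 14.1 to 23.6 in R1, 0.187 to 0.372 in R2 and 2.73 to 4.09 in control. SSX1, a cancer-testis antigen, had the reverse order, at 0.194, 0.351, 0.342 and 0.432 in R1, 23.4, 22.3, 44.1 and 47.7 in R2 and 7.61, 6.93, 6.15 and 8.3 in control. The R2 minus R1 differences were -5.02 for EGFL7, -4.46 for NOS3 and 5.32 for SSX1 (limma adjusted p = 9.6e-11, 3.4e-10 and 5.8e-10), while the mean gave -0.48 for EGFL7 and -0.56 for SSX1, both called lower (limma adjusted p = 0.0318 and 0.0402), and -0.05 for NOS3, which was not called (limma adjusted p = 0.851). The call of EGFL7 on the mean was lost in 6 alternatives, the single combination mean and a pseudocount of 2 among them. For SSX1 the call on the mean was not followed through the alternatives. CADM1, a cell adhesion protein, KCTD4 and GNA15, a G protein subunit, also left the controls in opposite directions.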

How the data were processed

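Per the labels' protocols, total RNA came from a Qiagen RNeasy mini kit and went into TruSeq RNA v2 libraries. Per the submitters' processing notes, STAR was the aligner, GRCh38 the build and edgeR a further tool; versions, annotation and strand setting are not given in the sources used here, so reads of a gene and of an antisense partner cannot be told apart. The deposited values are a normalised signal: gene counts divided by a size factor per library. All values (100%, tolerance 0.001 reads) were whole multiples of the value of a single read, so reads were recovered; each of the 12931 rows exceeded 1 CPM of recovered reads in at least 4 libraries, and 2 symbols stand on 2 rows.

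All 12 libraries entered a single limma 3.58.1 fit (R 4.3.3, mean-variance trend) of log2(value + 0.5) with 3 group means, two-sided, with Benjamini-Hochberg adjustment over all rows. The method was tested on simulated data. Separation was read from the deposited values. Intervals (95%, Clopper-Pearson) and the 3-read bounds cover counting error only. Alternatives were edgeR 4.0.16 and DESeq2 1.42.0 on recovered reads, other pseudocounts, a filter, other scalings, a replicate block, merged combination libraries and each library left out. Named genes were the 12 largest rises and 12 largest falls among separated genes that were called and reached a mean of 5, the largest R2 minus R1 differences and opposite changes, up to 2 per direction of each of 32 gene lists, those at the edge of the rule, and fixed drug-pathway genes; a few of them are not reported here. The members, lists and rules were chosen with earlier results of these data known. Promoters were matched for 77.4% of genes, under the 80% needed, so a check of promoter composition over the separated genes is void.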

Additional observations from a re-analysis of the deposited data

Results flagged for a closer look

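Of 129 named genes, 67 changed by a different amount in R2 and R1, by the limma test of the difference at an adjusted p under 0.05. Over all genes 46.8% passed, but the 2 shares cannot be compared. Some of the named genes were chosen for a called R2 minus R1 difference or for opposite changes, so their passing followed from the choice. The log2 differences of R2 minus R1 are given in brackets. Among genes above all controls, R1 was higher for LAMA4 (-4.13), LAMB3 (-3.84), HSD11B1 (-2.82), HLA-DRB1 (-2.66), HLA-DRB5 (-2.55), HLA-DRA (-2.32), HLA-DPB1 (-2.28), HLA-DQB1 (-2.05), HLA-DPA1 (-1.78), SERPINA1 (-1.72), PMEL (-1.58), BCL2A1 (-1.53), TAP1 (-1.34), LAMA1 (-1.18), ITGB2 (-1.0), TNFRSF10B (-0.80), FABP6 (-0.80), CDKN2D (-0.76), RPL23 (-0.76), PRDX1 (-0.61), TFDP2 (-0.45), ITGA6 (-0.43) and PUS3 (-0.40). R2 was higher for SMARCA2 (0.42), TPM2 (0.44), GPR65 (0.71) and LAMA2 (1.34). Among genes below all controls, the fall was larger in R1 for SDPR (5.11), TFAP2C (3.88), MOCS1 (3.85), ITGB8 (1.75), IRF7 (1.5), COL8A1 (1.22), ADM (1.07), CRIM1 (1.03), CDH2 (0.73), CBS (0.61), TPM1 (0.61), MLST8 (0.55) and ETV1 (0.44). It was larger in R2 for DMKN (-3.64), SPRY1 (-0.92), EFNB3 (-0.81), RAB27A (-0.70), PRC1 (-0.48), EREG (-0.47) and AKT2 (-0.30). Among the other named genes, R1 was higher for EGFL7 (-5.02), NOS3 (-4.46), GNA15 (-3.82), CDKN1A (-2.83), NRAS (-2.77), CD74 (-1.57), SPRY4 (-1.55), MAP2K1 (-1.44), DUSP6 (-1.28), HLA-DMA (-1.14), CDK4 (-1.13), CIITA (-0.92), SDSL (-0.80) and CCND1 (-0.49), and R2 was higher for SSX1 (5.32), KCTD4 (4.37), CADM1 (3.37), MKI67 (1.10), AXL (0.82) and CDK6 (0.79).

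In 24 of 387 groups of 4 libraries the gap between an extreme library and its neighbour took more of the group's range than Dixon's critical value allows. For normally distributed values chance gives this in about 1 group in 20, a rate that need not hold for counts near 0. R1 replicate 2 was the library in 12 of them, with normalised values of 79.1 for SERPINA1, 42.7 for SIGLEC15, 480 for LAMB3, 88.1 for TYMS, 130 for LAMA4, 57.1 for LIF, 4.08 for CBS, 8.82 for OSGIN1, 9.04 for GCLM, 122 for MAP2K1, 19.3 for AC003092.1 and 4.74 for LAMA2. The others were 78.2 for EMC10 in R2 replicate 2, 0.0291 for EGFL7 in R2 replicate 1, 295 for E2F4 in R2 replicate 1, 223 for FOXM1 in R2 replicate 2, 182 for AKT2 in R1 replicate 1, 0.0291 for TIMP3 in R2 replicate 1, 30.1 for SPOCK1 in control replicate 1, 66.2 for TNFRSF10B in control replicate 1, 70.2 for BID in R1 replicate 3, 202 for MAP2K2 in R2 replicate 4, 0.0618 for FAM83H in R1 replicate 4 and 0.0312 for FAM83H in R2 replicate 3. The values for EGFL7, TIMP3 and FAM83H lie below the value of 3 reads in their libraries. That value was 0.08722 in R2 replicate 1, 0.09268 in R1 replicate 4 and 0.09361 in R2 replicate 3. The cause was not tested.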

How the results depend on the processing

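Counts of called and separated genes over all genes stayed within 1.5 times the reported value under 232 of 238 alternatives. Among the other scalings, TMM gave each of these counts unchanged, so it was no separate check. Leaving out a library can only keep or raise a count of separated genes. The tally of 232 includes these alternatives. The counts of rises and falls in the gene lists, many of them small, moved by more than that in 181 of 1408, most often (44 of 64 counts) with a single combination mean. Such a mean for all 8 combination libraries, whose spread then holds the difference between R1 and R2, called 997 genes higher and 1001 lower. A gap of at least 0.2 on the log2 scale left 334 genes above and 430 below all controls, and 79 and 36 with opposite directions; fewer genes can pass it. On recovered reads edgeR called 2249 higher and 2249 lower and DESeq2 2303 and 2522, and 1665 and 1671 of the separated genes were among their calls. With each library left out, 1779 to 2577 genes were called higher and 1788 to 2492 lower, and 876 to 1004 lay above and 883 to 982 below all controls. Deviations of same-numbered libraries correlated at 0.07 to 0.13 between R1 and R2, -0.31 to 0.39 between R1 and control and -0.22 to 0.09 between R2 and control. Libraries of unlike number spanned -0.17 to 0.14, -0.52 to 0.43 and -0.19 to 0.19 in the same order. R1 replicate 2 stood at 0.43 and 0.41 with control replicates 3 and 4, and at -0.52 and -0.31 with control replicates 1 and 2. R1 replicates 1 and 4 had the opposite signs, so R1 and control libraries did not all deviate independently. Not every library correlated best with its own number, so the numbers are not taken to pair them. With the replicate block 2374 genes were called higher and 2284 lower, and CDKN1A, RB1 and TYMS were called (limma adjusted p = 0.0201, 0.0171 and 0.0443). In MHC class I presentation and in the BCL2 family 2 genes then fell instead of 4. The call of CDK6 was lost in 11 alternatives and those of NRAS, AXL, SPRY4 and HLA-DMA with the single combination mean (adjusted p = 0.124, 0.12, 0.394 and 0.0574). A pseudocount of 2 also called CDKN1A and RB1 (adjusted p = 0.0499 and 0.0498). Of 157 genes taken by the rule or added, 132 kept direction and call under every alternative run. For genes moved in opposite directions this was judged on the R2 minus R1 difference. CIITA, near 0, spanned -0.14 to 0.04 with each library left out and changed sign in 5 of these fits, without R1 replicate 3 or 4, R2 replicate 2 or control replicate 2 or 3. Scalings moved the median of all genes from 0.014 to at most 0.016 and at least -0.004. Genes near the 3-read bound are limited by depth.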
